A study of Mus musculus with 4 samples.

Results

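Fibrinogen is a secreted glycoprotein built from 3 kinds of chain, and the genes of these chains, Fga, Fgb and Fgg, are followed here through single cells of the mouse mammary gland. The 3 genes, of 52636 listed in the count matrices, were taken by symbol, and all 3 were found. They were chosen by their UMI levels in these same libraries, so the levels and the differences between libraries are given as a description, with no test. A UMI (unique molecular identifier) marks 1 captured RNA molecule.

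The study set 2 Esr1 genotypes, the Y541S mutant and wild type (WT), against 2 treatments, giredestrant and vehicle. Giredestrant, given by mouth, blocks the estrogen receptor encoded by Esr1 and has it degraded, and Y541S puts a serine in place of a tyrosine in that receptor's ligand-binding domain. The 4 groups were Y541S mice on giredestrant, Y541S mice on vehicle, WT mice on giredestrant and WT mice on vehicle, with 1 library each. All 4 groups carried hormone pellets (E2 and P4, estradiol and progesterone) and were raised to 6 months of age. Daily dosing lasted 4 days, with giredestrant at 30 mg/kg p.o. or with the vehicle, MCT. Cells positive for EpCAM, a surface protein of epithelial cells, were sorted and sequenced from transcript 3′ ends. The labels give neither the number of animals behind a library nor whether the Y541S allele was carried on 1 or both copies. No transcript count here tells the genotypes apart, which rest on those labels.

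The liver makes nearly all fibrinogen of the blood plasma. A chain of each kind joins into a half-molecule and a pair of these forms the hexamer, which thrombin turns into fibrin when blood clots. Fga encodes the A-alpha chain, Fgb the B-beta chain and Fgg the gamma chain, and in hepatocytes the genes are switched on together, further so by interleukin 6 through STAT3 in the acute phase response to injury and infection. The mammary epithelium has an outer basal (myoepithelial) layer and luminal cells of a hormone-sensing and a secretory kind, of which the hormone-sensing cells carry the estrogen and progesterone receptors.

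The genes lie side by side on mouse chromosome 3 (GRCm38, GENCODE gene spans). Fgg (ENSMUSG00000033860) runs from 83007724 to 83015049 on the plus strand, Fga (ENSMUSG00000028001) from 83026076 to 83033627 on the plus strand, and Fgb (ENSMUSG00000033831) from 83040141 to 83049863 on the minus strand. The cluster spans 42140 bases, with 11026 bases between Fgg and Fga and 6513 between Fga and Fgb, so Fgb is read towards the other two. The 250 bases before the RefSeq start of Fgb and of Fgg are shown because these were the chains with a high level in some libraries (RefSeq, GRCm38.p6, each 5′ to 3′ along its gene's strand). Capitals mark 2 searched motifs, CTGGGAA, the core of the interleukin 6 response element known from liver acute phase genes, and GTTAAT, a half-site of the liver factor HNF1, in either orientation.

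Fgb, chr3:83049864-83050113, minus strand: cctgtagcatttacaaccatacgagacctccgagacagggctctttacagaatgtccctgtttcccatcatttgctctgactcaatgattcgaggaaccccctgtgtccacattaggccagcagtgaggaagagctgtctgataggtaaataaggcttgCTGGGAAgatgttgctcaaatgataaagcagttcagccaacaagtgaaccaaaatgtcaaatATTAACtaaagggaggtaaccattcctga

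Fgg, chr3:83007474-83007723, plus strand: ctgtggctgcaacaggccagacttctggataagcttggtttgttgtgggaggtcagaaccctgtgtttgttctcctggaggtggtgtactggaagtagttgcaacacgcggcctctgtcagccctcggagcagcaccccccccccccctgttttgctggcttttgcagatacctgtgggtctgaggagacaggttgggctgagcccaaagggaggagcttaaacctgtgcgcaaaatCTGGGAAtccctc

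CTGGGAA began 91 bases before the start of Fgb and 13 bases before that of Fgg, and 9.10% of 32851 promoters of this length held it on either strand. GTTAAT was found, in reverse, 29 bases before the start of Fgb and was not in the Fgg window, and 6.43% of promoters held it. The full palindromic estrogen response element was in neither window and in 0.0639% of all promoters. Its half-site GGTCA, contained in the full element, lay 200 bases before the start of Fgg and was found in 35.2% of promoters. TGTTCT, a half-site shared by the progesterone and glucocorticoid receptors, lay 183 bases before the start of Fgg and was in 16.1% of promoters. The STAT core TTCNNNGAA lay 162 bases before the start of Fgb and was in 7.02% of promoters. The C/EBP core TTNNGNAA lay 206 and 80 bases before the start of Fgb, and 36.8% of promoters held it. Each match is a run of letters in a window and not a shown binding site.

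The 4 libraries held 30062 barcodes, of which 25950 passed filters of at least 1000 UMIs, at least 500 genes and at most 15% mitochondrial UMIs. Hormone-sensing cells were those with 10 or more UMIs of Esr1, Prlr, Areg and Foxa1 per 10000 (6868 cells), secretory cells those with 10 or more of Wfdc18, Csn3, Elf5 and Kit (4740 cells), and basal cells those with 20 or more of Acta2, Myh11, Mylk and Tagln (12904 cells). These sets overlap, with 818 cells in more than 1 of them, and 2280 cells met no cut. The source is labelled mature luminal, whereas the basal set was the largest. Levels are given as CPM, the UMIs of a gene per 1000000 UMIs summed over a cell set. Every interval is at 95% and covers counting error alone. Since each group is a single library, neither a spread between animals nor a test can be given, and a difference between libraries is one between those libraries. Pairs of libraries shared 7 to 23 barcode sequences after filtering. Depth differed, since hormone-sensing cells had a median of 8885 UMIs in the Y541S giredestrant library, 25736 in the Y541S vehicle library, 31203 in the WT giredestrant library and 28932.5 in the WT vehicle library.

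Fgg, the gamma chain, was the chain found in the most hormone-sensing cells of every library. Its level there was 13.4 CPM with giredestrant (interval 12.05 to 14.8) and 259 CPM with vehicle (255 to 263) in Y541S cells. In WT cells it was 360 CPM with giredestrant (355 to 366) and 105 CPM with vehicle (100.5 to 109). The order was therefore WT giredestrant, Y541S vehicle, WT vehicle and Y541S giredestrant, and no 2 of these intervals overlapped. A UMI of Fgg was found in 6.01% of 2678 cells with giredestrant and in 66.7% of 2313 cells with vehicle in Y541S. In WT the share was 66.2% of 1185 cells with giredestrant and 41.0% of 692 cells with vehicle. Cells that held Fgg had a median of 1, 6, 11 and 3 UMIs in the Y541S giredestrant, Y541S vehicle, WT giredestrant and WT vehicle libraries, and the most in 1 cell was 20, 118, 143 and 84. The Y541S vehicle and WT giredestrant libraries thus had a like share of cells with Fgg, and the WT giredestrant cells held more of it per cell.

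Fgb, the B-beta chain, stood high in a single library. It reached 3.22 CPM with giredestrant (2.60 to 3.96) and 14.8 CPM with vehicle (13.9 to 15.8) in Y541S hormone-sensing cells. In WT cells it was at 281 CPM with giredestrant (277 to 286) and at 9.06 CPM with vehicle (7.82 to 10.4). The WT giredestrant library was far above the other three, which lay between 3.22 and 14.8 CPM. Fgb was found in 1.16% of hormone-sensing cells with giredestrant and 4.93% with vehicle in Y541S, and in 48.4% with giredestrant and 3.76% with vehicle in WT. Where few cells held Fgb, those few held most of its UMIs. The 1% of hormone-sensing cells with the most Fgb carried 70.4% of its UMIs in the Y541S vehicle library (23 cells) and 75.3% in the WT vehicle library (7 cells), against 13.03% in the WT giredestrant library (12 cells). Single cells reached 10, 70, 193 and 38 Fgb UMIs in the Y541S giredestrant, Y541S vehicle, WT giredestrant and WT vehicle libraries.

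Fga, the A-alpha chain, was close to absent, so that 1 of the 3 chains a hexamer needs was rare wherever the other two were seen. No Fga UMI was found in hormone-sensing cells of the Y541S giredestrant library, where a limit of 3 counts comes to 0.106 CPM, and the Y541S vehicle library had 29 UMIs in 6 cells, or 0.46 CPM (0.308 to 0.661). The WT giredestrant library had 2 UMIs in 2 cells, or 0.044 CPM (0.005 to 0.158), and the WT vehicle library 78 UMIs in 19 cells, or 3.72 CPM (2.94 to 4.64). The most in 1 cell was 26 UMIs, in the WT vehicle library. Fga was therefore highest in the WT vehicle library, where Fgb and Fgg were not at their highest, and lowest in both giredestrant libraries.

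**Figure D1:**
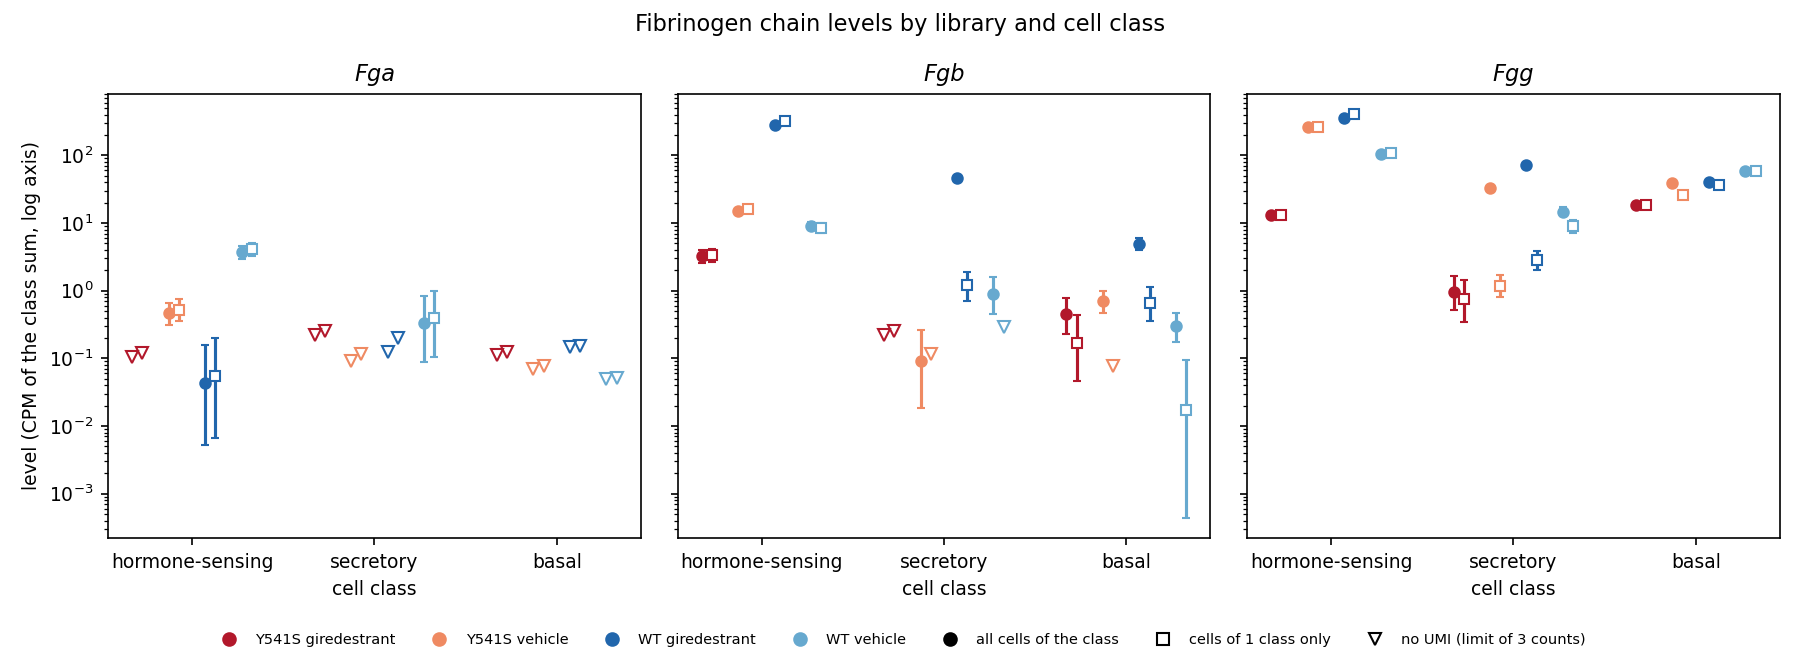
Level of each chain (CPM of the summed cells, log axis) in hormone-sensing, secretory and basal cells of the 4 libraries. Filled circles are all cells of a set, open squares the cells that met the cut of 1 set only, bars are 95% counting intervals, and open triangles mark sums without a UMI, drawn at the limit of 3 counts. Fgb in hormone-sensing cells is at 281 CPM in the WT giredestrant library and at or below 14.8 CPM in the others, and Fga passes 1 CPM only in hormone-sensing cells of the WT vehicle library.

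Giredestrant went with opposite differences in the 2 genotypes. In WT hormone-sensing cells, the log2 ratio of giredestrant over vehicle was 4.96 for Fgb (4.75 to 5.17, 31.1-fold higher), 1.78 for Fgg (1.72 to 1.85, 3.44-fold higher) and -6.41 for Fga (-9.48 to -4.51, on 2 and 78 UMIs). In Y541S hormone-sensing cells, the log2 ratio of giredestrant over vehicle was -2.20 for Fgb (-2.53 to -1.89, 4.595-fold lower) and -4.28 for Fgg (-4.43 to -4.13, 19.4-fold lower). Fga, with 0 and 29 UMIs, was lower by at least 3.30-fold at the bound of its counting interval. Fgb and Fgg were thus higher with giredestrant in WT cells and lower with it in Y541S cells, while Fga was lower in both. These ratios sit on a shifted background. With giredestrant against vehicle in WT hormone-sensing cells, 21.6% of 16850 genes with 20 or more UMIs were 2-fold higher or more and 7.95% lower by as much, and the median gene had a log2 ratio of 0.42. In Y541S hormone-sensing cells the shares were 20.5% and 7.53% of 17756 genes, and the median gene had 0.27. With TMM scaling the shares higher and lower came to 13.8% and 11.5% in WT and 14.4% and 13.6% in Y541S. Relative to the median gene, Fgb was at 4.53 and Fgg at 1.36 in WT, and Fgb at -2.47 and Fgg at -4.55 in Y541S (log2). In the WT comparison 93 genes had a larger ratio than Fgb and 1259 a larger one than Fgg, and in the Y541S comparison 89 genes had a smaller ratio than Fgg.

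Between genotypes, the direction depended on the treatment for Fgb and Fgg. Under vehicle, Y541S over WT gave a log2 ratio of 1.30 for Fgg (1.24 to 1.37, 2.47-fold higher), 0.71 for Fgb (0.48 to 0.94) and -3.02 for Fga (-3.68 to -2.38). In that comparison 5.75% of 16865 genes were 2-fold higher or more, and 4.03% lower by as much. With giredestrant, Y541S over WT gave -6.45 for Fgb (-6.76 to -6.15, 87.3-fold lower) and -4.75 for Fgg (-4.90 to -4.61, 27.0-fold lower), where 15.8% of 17691 genes were 2-fold higher or more and 13.2% lower by as much. For Fga, with 0 and 2 UMIs, no ratio is given. All of these comparisons share libraries, so the 4 sets of ratios are not independent. The log2 ratio of Fga between genotypes under vehicle was -1.39 (-2.98 to 0.27) when every cell was thinned to 4000 UMIs, on 9 and 7 UMIs.

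**Figure D2:**
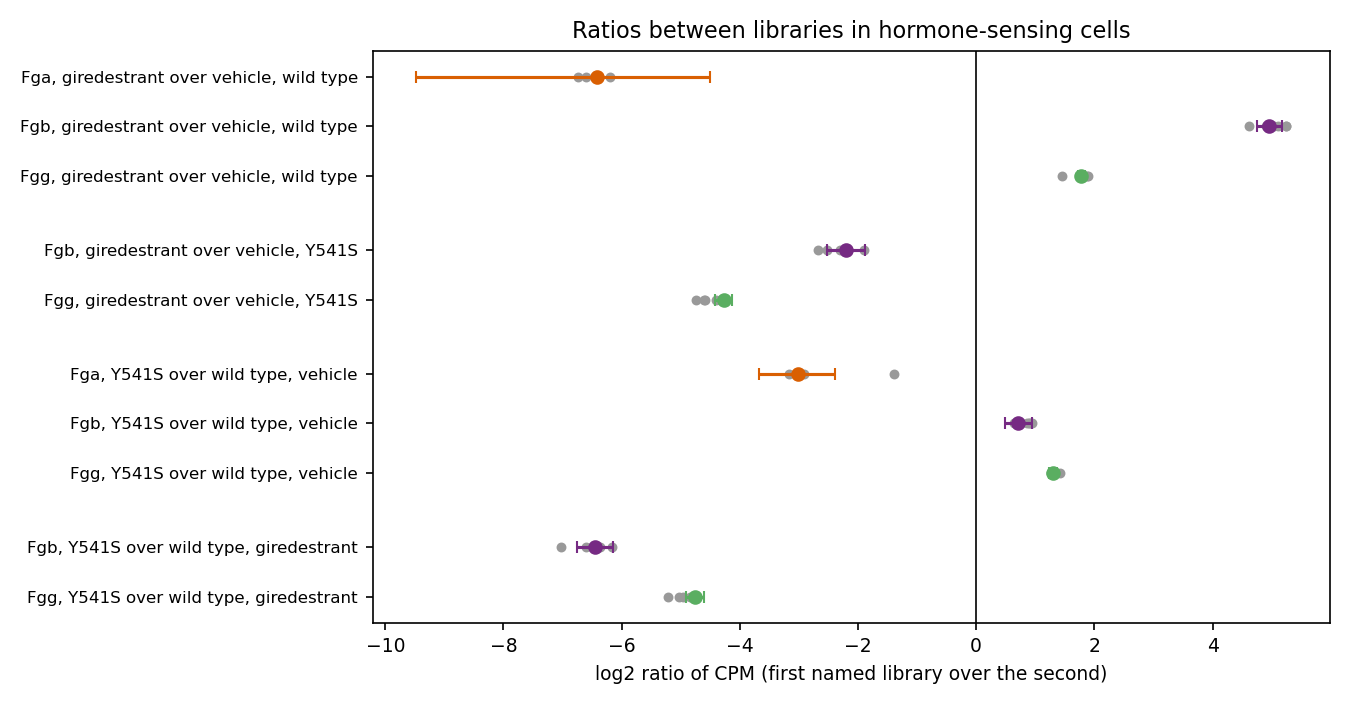
Log2 ratio of CPM between pairs of libraries in hormone-sensing cells, with 95% counting intervals as bars and the values under the alternative settings as grey points. In WT the Fgb and Fgg points lie right of 0 (4.96 and 1.78) and in Y541S left of 0 (-2.20 and -4.28). Fga is left out of comparisons in which a library had no UMI of it.

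The share of cells with a chain depends on depth, so each cell was also thinned to 4000 UMIs, which left out 480 hormone-sensing cells of the Y541S giredestrant library and 18 to 62 of the other libraries. At that depth Fgb was found in 0.637% of Y541S cells with giredestrant and 2.27% with vehicle, and in 31.4% of WT cells with giredestrant and 1.49% with vehicle. Fgg was found in 3.23% of Y541S cells with giredestrant and 41.3% with vehicle, and in 42.4% of WT cells with giredestrant and 134 of 670 with vehicle. The order of the libraries was the same as at full depth for Fgb, and for Fgg the Y541S vehicle and WT giredestrant shares had overlapping intervals (39.3 to 43.4 and 39.6 to 45.3). Fga was found in 0 of 2198 thinned Y541S cells with giredestrant, which allows a share of up to 0.136%, and in 0.178% with vehicle. In WT it was in 0 of 1167 cells with giredestrant (up to 0.257%) and in 0.746% with vehicle. As a measure of free RNA, 288 cells outside the 3 sets with 10 or more UMIs per 10000 of immune, endothelial and fibroblast markers (Ptprc, Pecam1, Cdh5, Col1a1, Col3a1 and Pdgfra) held no UMI of any chain. After thinning to the same 4000 UMIs, 40 to 78 such cells remained per library, which allows a share of up to 3.85 to 7.5%. The WT giredestrant shares of Fgb and Fgg and the vehicle shares of Fgg lay above that limit, whereas the other shares did not, so for those the limit gives no separation from free RNA.

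Within single cells the chains were seldom found as a full set. A hexamer needs all of them, and all 3 were detected in 0 of 2678 hormone-sensing cells of the Y541S giredestrant library, 3 of 2313 of the Y541S vehicle library, 1 of 1185 of the WT giredestrant library and 6 of 692 of the WT vehicle library. Exactly 2 chains were found in 8, 107, 475 and 29 cells, and exactly 1 in 176, 1440, 407 and 253 cells, in that order of libraries. No chain was found in 2494, 763, 302 and 404 cells. Among cells with a chain, a single chain was therefore the usual case except in the WT giredestrant library, where cells with 2 chains outnumbered those with 1. That library had Fgb and Fgg together in 40.1% of its hormone-sensing cells, Fgg without Fgb in 26.1% and Fgb alone in 8.27%. In the Y541S giredestrant, Y541S vehicle and WT vehicle libraries, Fgb and Fgg occurred together in 0.299%, 4.63% and 3.18% of cells.

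**Figure D3:**
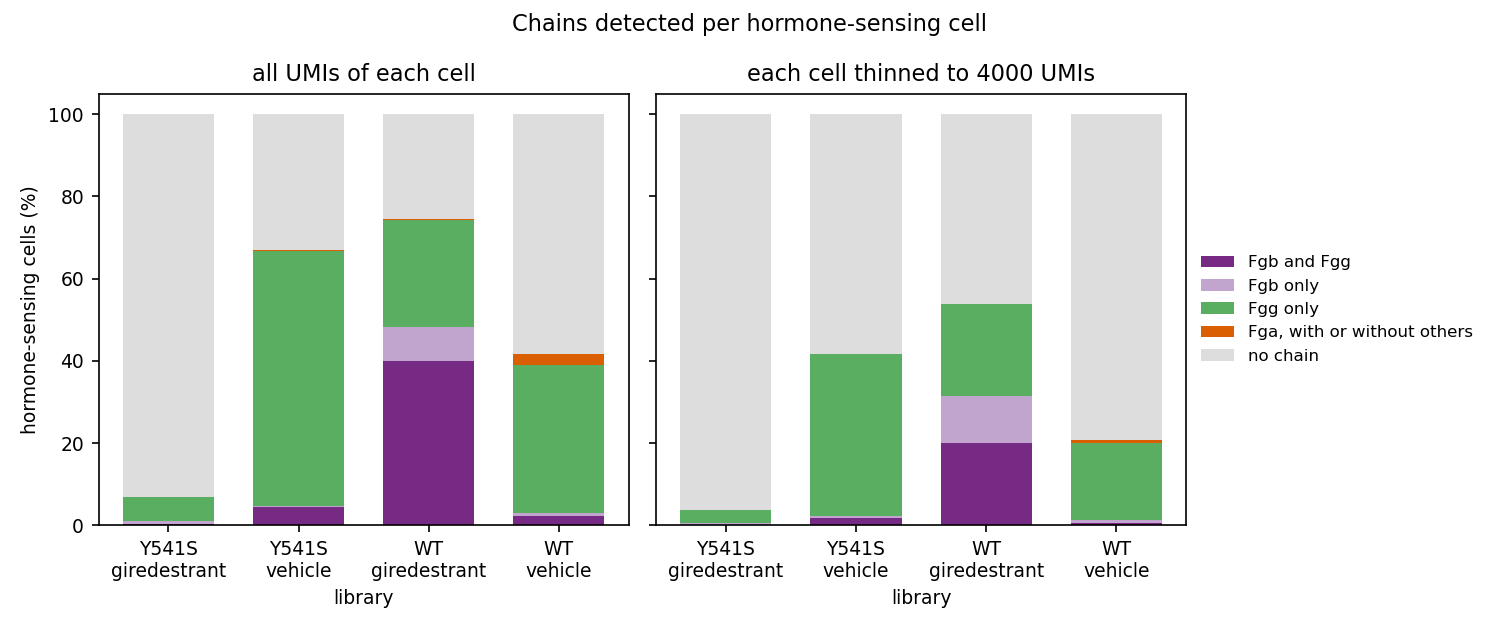
Share of hormone-sensing cells (%) in which Fgb and Fgg, Fgb only, Fgg only, Fga with or without the others, or no chain was detected, for each library, with all UMIs of a cell (left) and with each cell thinned to 4000 UMIs (right). The WT giredestrant library has both Fgb and Fgg in 40.1% of cells with all UMIs and in 20.1% after thinning, and in the other libraries Fgg alone is the main class among cells with a chain.

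Fgb and Fgg were found in the same cells more often than the product of their separate shares. After thinning, both were in 1.82% of Y541S vehicle cells, where the product of the shares is 0.936%, in 20.1% of WT giredestrant cells against 13.3%, and in 0.896% of WT vehicle cells against 0.299%. The Y541S giredestrant library had 1 such cell. Among thinned Y541S vehicle cells, Fgg was in 80.4% of those with Fgb and in 40.4% of those without. Among WT giredestrant cells it was in 63.9% of those with Fgb and in 32.6% of those without, and among WT vehicle cells in 60.0% of 10 with Fgb and in 19.4% of those without. The gamma chain thus accompanied the B-beta chain, and its level was higher in those cells. The summed level of Fgg in cells with Fgb was 1010 CPM, against 264 CPM in cells without, in the Y541S vehicle library. It was 720 against 231 CPM in the WT giredestrant library and 525 against 104 CPM in the WT vehicle library. At full depth, where deeper cells show more chains, the few Fga cells of both vehicle libraries held the other chains more often than hormone-sensing cells at large. All 6 Fga cells of the Y541S vehicle library, both of the WT giredestrant library and all 19 of the WT vehicle library held Fgg at full depth, and Fgb was in 3, 1 and 6 of them. Over all hormone-sensing cells of these libraries, Fgg was in 66.7%, 66.2% and 41.0% and Fgb in 4.93%, 48.4% and 3.76%. For the 6 cells of the Y541S vehicle library the interval of the Fgg share, 54.1 to 100%, holds the 66.7%. After thinning, 4 Fga cells remained in the Y541S vehicle library, with Fgg in 4 and Fgb in 1. In the WT vehicle library 5 remained, with Fgg in 4 and Fgb in 2.

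Basal cells, the contractile outer layer, carried Fgg and nearly none of the other chains. Fgg was at 18.4 CPM with giredestrant and 39.7 CPM with vehicle in Y541S basal cells, and at 40.5 CPM with giredestrant and 59.0 CPM with vehicle in WT basal cells. The log2 ratio of giredestrant over vehicle was -1.11 in Y541S (-1.25 to -0.96) and -0.54 in WT (-0.65 to -0.43), so that both genotypes had less Fgg with giredestrant, unlike hormone-sensing cells. In Y541S basal cells 7.84% of 17468 genes were 2-fold higher or more with giredestrant and 3.91% lower by as much, and in WT 8.35% and 5.23% of 17855. The Y541S ratio was -0.49 in cells that met the basal cut alone and -0.46 with likely doublets removed. In cells of the basal set alone the Fgg levels were 18.5, 26.0, 36.5 and 59.1 CPM in the Y541S giredestrant, Y541S vehicle, WT giredestrant and WT vehicle libraries, so the WT vehicle library was the highest and the Y541S giredestrant library the lowest under both definitions. Thinned basal cells held Fgg in 4.22% with giredestrant and 7.35% with vehicle in Y541S, and in 8.30% with giredestrant and 11.5% with vehicle in WT. Of these, the WT vehicle share lay above the limit of the non-epithelial cells of its library (3.85%). The WT giredestrant share had an interval of 6.66 to 10.2, which holds the limit of 7.32%, and both Y541S shares lay under theirs. No Fga UMI was found in any of 12904 basal cells. Fgb was at 0.45, 0.70, 4.97 and 0.30 CPM in the same order, and at 0.66 CPM or less in cells of the basal set alone. Its log2 ratio of giredestrant over vehicle was -0.63 in Y541S (-1.73 to 0.38) and 4.06 in WT (3.33 to 4.87), the WT value on 103 and 18 UMIs. In cells of the basal set alone Fgb had 4 UMIs with giredestrant and 0 with vehicle in Y541S, and 13 with giredestrant and 1 with vehicle in WT (log2 ratio 5.26). Between genotypes, Y541S over WT under vehicle gave -0.57 for Fgg (-0.65 to -0.49) and 1.22 for Fgb on 30 and 18 UMIs, of which single cells held 24 and 17, and -0.94 for Fgb after thinning. There, 3.87% of 18282 genes were higher by 2-fold and 4.67% lower. With giredestrant it gave -1.14 for Fgg (-1.30 to -0.97) and -3.47 for Fgb, where 7.33% of 16826 genes were higher by 2-fold and 7.7% lower. In cells of the basal set alone, Y541S over WT gave -1.19 for Fgg under vehicle and -1.98 for Fgb with giredestrant. Fgg in basal cells was thus lower in Y541S than in WT under both treatments, while in hormone-sensing cells it was higher in Y541S under vehicle.

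Secretory cells, the milk-producing kind, had little of any chain once cells that also met another cut were left out. Over all cells of the secretory set, Fgg was at 0.96 CPM with giredestrant and 32.7 CPM with vehicle in Y541S and at 71.0 CPM with giredestrant and 14.7 CPM with vehicle in WT. The log2 ratio of giredestrant over vehicle was -5.09 for Fgg in Y541S, where 7.57% of 16044 genes were higher by 2-fold and 6.73% lower. In WT it was 2.27 for Fgg and 5.70 for Fgb, where 6.7% of 15756 genes were higher by 2-fold and 5.61% lower. Between genotypes, Y541S over WT gave 1.15 for Fgg under vehicle (3.18% of 15912 genes higher, 5.08% lower), and Fgb had 3 and 11 UMIs, all 11 in 1 cell. With giredestrant it gave -6.21 for Fgg (7.09% of 15876 genes higher, 11.3% lower). Fgb, with 0 and 1154 UMIs, was lower by at least 172-fold at the bound of its counting interval. These ratios did not hold in cells of 1 set. In cells of the secretory set alone the Fgg levels were 0.76 and 1.19 CPM in Y541S and 2.82 and 8.94 CPM in WT. The order of the WT pair was thereby turned round, and the 8.94 CPM came from 92 UMIs of which a single cell held 81. Fgb in the WT giredestrant library stood at 47.0 CPM over the secretory set and at 1.21 CPM in cells of that set alone, where 131 of its 753 secretory cells also met the hormone-sensing cut. Of the Fgg UMIs of the secretory set, 31 of 1078 in the Y541S vehicle library and 42 of 1743 in the WT giredestrant library lay in cells of that set alone, against 9 of 13 in the Y541S giredestrant library and 92 of 179 in the WT vehicle library. The high values of the Y541S vehicle and WT giredestrant libraries therefore rest on cells with markers of more than 1 kind. Whether these were doublets or single cells of mixed expression was not tested.

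The hormone-sensing sets were not alike in their other genes. The markers of the cut came to 4080, 5307, 6931 and 3705 CPM in the Y541S giredestrant, Y541S vehicle, WT giredestrant and WT vehicle libraries. The basal markers Krt5, Krt14, Trp63 and Oxtr, which the cuts did not use, came to 976 CPM in the Y541S giredestrant library, against 89.96, 49.9 and 121 CPM in the others. The lowest Fgb and Fgg thus stood in the library whose hormone-sensing set held the most basal keratin RNA. Within that library, 1946 cells with under 10 Krt14 UMIs per 10000 had Fgg at 9.71 CPM and Fgb at 3.97 CPM, and the other 732 cells had Fgg at 23.8 CPM and Fgb at 1.09 CPM. Among cells low in Krt14, a set chosen after seeing the data, the log2 ratio of Fgg, giredestrant over vehicle in Y541S, was -4.74 (-4.28 over the whole set). Fgb was at 3.97 CPM with giredestrant and 14.7 CPM with vehicle in such Y541S cells, against 3.22 and 14.8 CPM over the whole set. The part of the Krt14-rich cells in the differences was not tested.

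The markers of liver and of platelets given here, the other known carriers of fibrinogen, were near 0, apart from the platelet gene Itga2b. For 6 hepatocyte markers summed in hormone-sensing cells, the level was 1.8, 1.9, 1.5 and 1.4 CPM in the same order of libraries. Alb, the defining gene of hepatocytes, had 1, 0, 3 and 0 UMIs, Ahsg 0, 1, 0 and 0, and Serpina1a none in any library. The other 3 (Ttr, Apoa1 and Apoa2) had 1 to 94 UMIs each. Of the platelet genes, Gp9 had none in any library and Pf4 had 2 to 7 UMIs per library. Itga2b, also a member of the fibrinogen receptor list, had 148, 249, 382 and 57 UMIs in the same order. These came to 5.24, 3.95, 8.36 and 2.72 CPM, the highest value being in the WT giredestrant library. Among the neighbours of the cluster, Plrg1, a splicing factor gene next to Fgb, had 25.3, 25.2, 57.1 and 25.8 CPM in hormone-sensing cells, the highest value being in the WT giredestrant library, and the other 3 protein-coding genes within 250 kb (Rbm46, Lrat and Dchs2) had less than 1 CPM in all 4. The non-coding gene Gm30097 overlaps the 5′ end of Fgg on the other strand and had 2 to 4 UMIs per library.

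The acute phase genes, which share with fibrinogen the response to interleukin 6 in liver, did not follow Fgb and Fgg in WT hormone-sensing cells. Of 26 genes of the interleukin 6, STAT3 and acute phase list, 21 had 20 or more UMIs in the WT comparison, and with giredestrant 2 were higher and 9 lower by 2-fold or more (21.6% and 7.95% of all genes, with a median log2 ratio of -0.29 for the list against 0.42 over all genes). Saa1, a serum amyloid A, was at 1.06, 30.2, 0.197 and 149 CPM in the Y541S giredestrant, Y541S vehicle, WT giredestrant and WT vehicle libraries. Saa3, another serum amyloid, was at 0.461, 50.9, 0.482 and 71.5 CPM. Hp, which encodes the hemoglobin scavenger haptoglobin, was at 44.2, 925, 86.8 and 1790 CPM, and Cp, the copper carrier ceruloplasmin, at 29.8, 89.2, 21.0 and 378 CPM. All 4 were highest in the WT vehicle library, lower with giredestrant in both genotypes, and near their lowest in the library where Fgb and Fgg were at their highest. Fga, unlike the other chains, was also highest in the WT vehicle library and lower with giredestrant in both genotypes. It was at 0, 0.46, 0.044 and 3.72 CPM in the same order of libraries, on 78 UMIs or fewer. The iron-binding protein gene Lcn2 was likewise lower with giredestrant in both genotypes, at 58.4 CPM with giredestrant and 567 CPM with vehicle in Y541S and 176 and 1764 CPM in WT. The 2 higher members, named after their values were seen, were Socs3, the feedback inhibitor of the pathway, at 397 CPM with giredestrant against 99.5 CPM with vehicle in WT, and Cebpd, a transcription factor of the acute phase, at 214 against 89.3 CPM. In Y541S neither reached 2-fold, with Socs3 at 69.1 CPM with giredestrant and 97.8 CPM with vehicle, and Cebpd at 74.6 and 89.6 CPM. In the Y541S comparison 0 of 21 list members were higher by 2-fold and 7 lower, beside 20.5% and 7.53% of all genes. Under vehicle, Y541S over WT had 0 of 21 higher and 4 lower, beside 5.75% and 4.03%. With giredestrant, Y541S over WT had 2 of 20 higher and 4 lower, a share near the 15.8% and 13.2% of all genes.

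**Figure D4:**
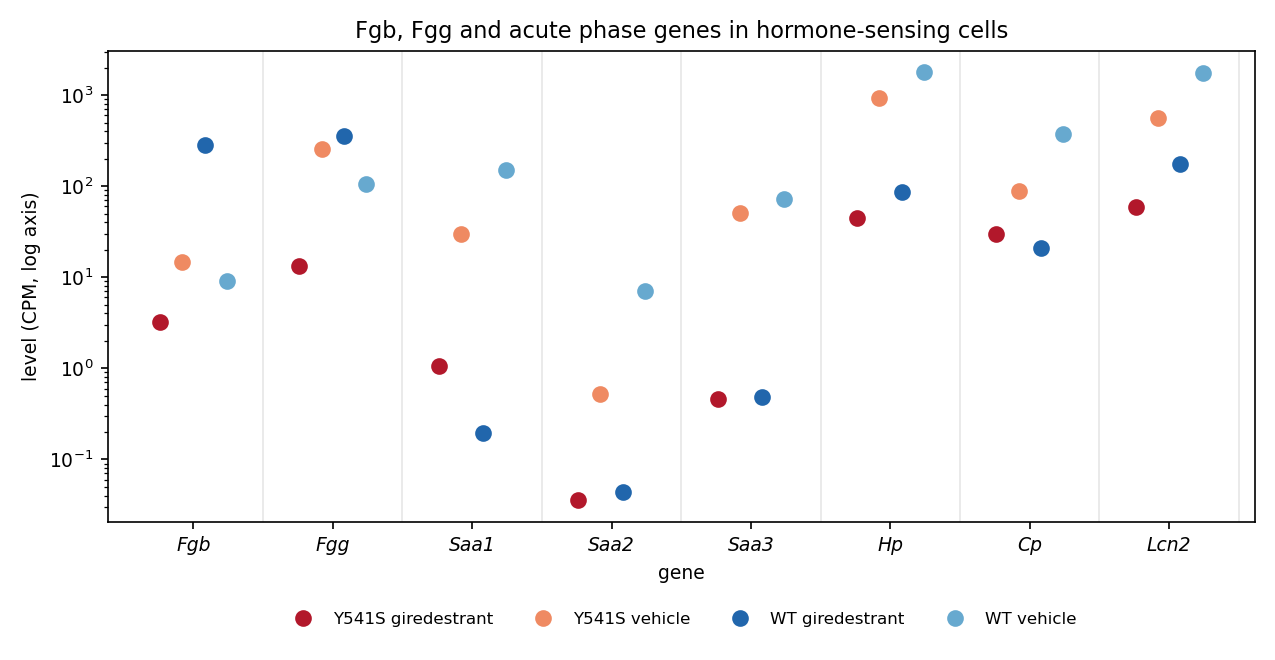
Levels (CPM, log axis) of Fgb, Fgg and 6 acute phase genes in hormone-sensing cells of the 4 libraries. In the WT pair, Fgb and Fgg are higher in the giredestrant library (281 and 360 CPM) than in the vehicle library (9.06 and 105 CPM), while Saa1, Saa2, Saa3, Hp, Cp and Lcn2 are lower; in the Y541S pair all 8 genes are lower with giredestrant.

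The genes whose products act with fibrinogen lay on both sides of the 2-fold mark in WT hormone-sensing cells. The counts here stand against shares over all genes of 21.6% higher and 7.95% lower in WT and 20.5% higher and 7.53% lower in Y541S, and with so few members a share near these is no result about a list. Of 17 genes of the coagulation cascade, 7 had 20 or more UMIs in the WT comparison of hormone-sensing cells, with 3 higher and 2 lower at 2-fold, and 8 in the Y541S comparison, with 3 higher and 0 lower. F3, tissue factor and the starter of clotting, was at 942 CPM with giredestrant and 504 CPM with vehicle in Y541S, and at 160 CPM with giredestrant and 599 CPM with vehicle in WT. F3 thus ran against Fgb and Fgg in both genotypes. Vwf, whose product tethers platelets, was at 93.5 and 110 CPM in Y541S and at 73.9 and 263 CPM in WT, giredestrant first. F8, F5 and F2, which encode clotting factors and prothrombin, were all at 5.47 CPM or less in every library. Of 10 coagulation inhibitors, 5 could be compared in Y541S, with 2 higher and 1 lower, and 4 in WT, with 2 higher and 0 lower. One of the 2 higher in WT, Proc, which encodes the anticoagulant protein C, was like Fgb highest in the WT giredestrant library, with 4.39 CPM with giredestrant and 10.7 CPM with vehicle in Y541S, and 48.2 CPM with giredestrant and 2.91 CPM with vehicle in WT. Its log2 ratio in WT was 4.05 (3.68 to 4.44). Pros1, the cofactor protein S, was at 28.9 and 14.3 CPM in Y541S and at 23.2 and 10.0 CPM in WT.

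Of 12 genes that dissolve fibrin or control its breakdown, 8 could be compared in WT, with 2 higher and 3 lower (all genes 21.6% and 7.95%), and 9 in Y541S, with 4 higher and 1 lower (all genes 20.5% and 7.53%). Plau, the urokinase that activates plasminogen, was at 130 CPM with giredestrant and 9.22 CPM with vehicle in Y541S, and at 5.45 CPM with giredestrant and 1.81 CPM with vehicle in WT. Serpine2, a protease inhibitor, was at 24.3 and 174 CPM in Y541S and at 54.7 and 125 CPM in WT. The Y541S giredestrant library thus combined the lowest fibrinogen levels with the highest Plau and F3. Among 10 fibrinogen receptors, 6 could be compared in each genotype, with 2 higher and 0 lower in WT and 3 higher and 0 lower in Y541S, beside the same shares over all genes. Icam1, an adhesion receptor that binds fibrinogen, was at 94.6 and 25.7 CPM in Y541S and at 41.4 and 17.7 CPM in WT. Of 16 genes with a fibrinogen-related domain, 11 could be compared in WT, with 3 higher and 7 lower (median log2 ratio -1.92, against 0.42 over all genes). In Y541S 13 could be compared, with 2 higher and 4 lower (median 0.06, against 0.27). Angptl7, an angiopoietin-like gene, was at 0.602 and 20.5 CPM in Y541S and at 0.197 and 65.1 CPM in WT, whereas its relative Angptl6 was at 1.17 and 1.29 CPM in Y541S and at 12.9 and 1.38 CPM in WT. Angptl6 was therefore another gene of these lists with its high value in the WT giredestrant library. Genes of glycoprotein folding and export, the path a secreted hexamer takes, had 0 of 12 higher and 4 lower in WT (all genes 21.6% and 7.95%), and 0 of 12 higher and 2 lower in Y541S (all genes 20.5% and 7.53%). Ssr4, a subunit of the translocon-associated complex, was at 144 and 562 CPM in Y541S and at 272 and 651 CPM in WT.

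Cells with a chain were next set against cells without one inside each library, after thinning, as a description of cells from the same preparation. In the WT vehicle library, 139 hormone-sensing cells with any chain had Saa3 at 399 CPM, against 16.5 CPM in 531 cells without. Saa1 was at 558 against 68.3 CPM, Lcn2 at 3820 against 1275 CPM and Hp at 3385 against 1509 CPM, so acute phase RNA was higher in the cells with fibrinogen RNA. Kallikrein genes (Klk1b21, Klk1b27, Klk1b1 and Klk1) were also among the 12 largest ratios there. In the Y541S vehicle library, 940 cells with a chain had Saa1 at 64.4 CPM against 8.39 CPM in 1311 without, and Saa3 at 92.0 against 19.5 CPM. Lrg1, another acute phase gene, was at 179 against 61.2 CPM. Penk, which encodes an enkephalin precursor, was at 1.33 CPM in cells with a chain and 23.8 CPM in cells without, and the defensin gene Defb3 at 0.80 and 28.8 CPM. Acute phase genes thus led the cells with any chain in both vehicle libraries. Most of these cells held Fgg alone (886 of 940 in Y541S and 126 of 139 in WT). Split by Fgb, 51 cells of the Y541S vehicle library with it and 2200 without had their largest ratio in the agouti gene a, at 623 against 249 CPM. Sgms1, Rps6ka3 and Hspd1 came next, and none of these is an acute phase gene of the list. Ranking needed 50 thinned UMIs in the 51 cells, which left out genes of low level.

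In the giredestrant libraries other genes led among those with enough UMIs to be ranked. In the WT giredestrant library, 627 cells with a chain and 540 without had their largest upward ratio in Scin, an actin-severing protein gene, at 21.1 against 6.94 CPM. Upk3a, a uroplakin, was at 376 against 158 CPM, and the replication genes Pclaf and Top2a were at 25.5 against 8.80 CPM and 36.3 against 17.1 CPM. The basal genes Krt14 and Tagln were lower in cells with a chain, with Krt14 at 14.4 CPM against 64.8 CPM in cells without one and Tagln at 18.3 against 82.4 CPM. Cells with Fgb itself in that library (366, against 801 without) had Upk3a at 498 against 173 CPM and Top2a at 44.4 against 19.7 CPM. No acute phase gene of the list was among the 12 largest ratios there. Saa1, Saa2 and Saa3 had too few UMIs to be ranked, so their absence is no result. Hp and Lcn2 stood higher, at 86.8 and 176 CPM over all hormone-sensing cells of that library, and were not among the 12 either. In the Y541S giredestrant library only 84 cells held a chain, and their largest ratio was of Gm16685, at 170 against 63.4 CPM. Nkain2, Sprr1a and Thbs1 came next. Fn1, fibronectin, was at 315 against 151 CPM and Krt14, the smallest of the 12 ratios, at 1449 against 882 CPM. Chain-bearing cells were therefore poorer in Krt14 in the WT giredestrant library and richer in it in the Y541S giredestrant library. In the latter, 70 of the 84 held Fgg only, and Fgb went the other way. At full depth Fgb was at 3.97 CPM in its cells low in Krt14 and 1.09 CPM in the others. Ranking as higher needed 50 thinned UMIs in the 84 cells, where Abi3bp, with 50, was at 149 CPM. Over all hormone-sensing cells of the Y541S giredestrant library, Saa1, Saa3, Hp, Cp and Lcn2 were at 1.06, 0.461, 44.2, 29.8 and 58.4 CPM. At such levels they fell short of ranking unless far higher in the 84 cells. Their absence there is therefore no result either.

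Basal cells with Fgg carried more RNA of hormone-sensing genes in 3 libraries. In the Y541S vehicle library, Areg was at 386 CPM in 224 cells with Fgg and 39.1 CPM in 2825 without, and Prlr at 222 against 23.7 CPM. In the WT giredestrant library Prlr was at 166 CPM in 83 cells with Fgg and 24.5 CPM in 917 without, and in the WT vehicle library at 22.9 CPM in 547 with and 8.62 CPM in 4205 without. Hp was at 150 against 13.4 CPM in the Y541S vehicle library and at 47.1 against 7.73 CPM in the WT vehicle library. In the Y541S giredestrant library no gene of the hormone-sensing cut was among the 12 largest ratios, and Fabp5 led, at 212 CPM in 112 cells with Fgg against 107 CPM in 2545 without. Over all basal cells and in those that met the basal cut alone, Fgg was at 18.4 and 18.5 CPM in the Y541S giredestrant library, 39.7 and 26.0 CPM in the Y541S vehicle library, 40.5 and 36.5 CPM in the WT giredestrant library and 59.0 and 59.1 CPM in the WT vehicle library. The level was thus lower without the mixed cells in the Y541S vehicle library above all, and the part of mixed droplets in the rest was not tested.

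Across the 12 sums of library and cell set, the 3 chains had unlike profiles. Pearson's r of log2(CPM + 1) was 0.73 between Fgb and Fgg, 0.29 between Fga and Fgg and 0.16 between Fga and Fgb. These points share libraries, so r is given as a description. Of 10938 genes at 10 CPM or more in at least 1 sum, those most like the mean of the 3 chains were Dnajc4 (0.97), Rbms2 (0.96), Il17rc (0.95) and Glmp (0.95), followed by Pttg1, Ccpg1os, Prdx6 and B4galt4, and Dnajc4, a co-chaperone gene, ranged only from 12.03 to 28.6 CPM. Taken alone, Fgb was most like Nrg4 (r = 0.997), which encodes a ligand of the EGF receptor family, Fga most like the kallikrein Klk1b27 (0.99), and Fgg most like Glrx2 (0.96), a glutaredoxin. Few high sums weigh most in the r of Fga and Fgb. Fga passed 1 CPM only in hormone-sensing cells of the WT vehicle library (3.72 CPM, 78 UMIs). Fgb was at 281 and 47.0 CPM in the hormone-sensing and secretory sets of the WT giredestrant library, and at 14.8 CPM or less elsewhere. The nearest genes to each chain were thus different ones.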

How the data were processed

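For each of the 4 libraries, the deposited matrix gives unnormalized UMI counts by gene and barcode, made with Cell Ranger 6.0.1 per the file headers and on GRCm38 per the submitters' processing notes; annotation release and intron handling are not given in the sources used here. Other deposited text files name the barcodes and genes and carry no measurements. The kit was the 10x 3′ v3.1 kit, per the labels. Of 52636 gene identifiers, 52403 matched the GRCm38 annotation used for coordinates. RefSeq promoters were those of GRCm38.p6.

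Counts were summed over the cells of a set and expressed as CPM (Python 3.11.15, NumPy 2.4.6, pandas 2.3.3). Levels carry exact Poisson intervals, shares exact Clopper-Pearson intervals and ratios exact conditional binomial intervals (SciPy 1.17.1), all at 95%. Sums without a UMI have a limit of 3 counts per library. The ratio calculation was checked on simulated counts with known ratios; the ratios of the libraries themselves were not tested. Genes were compared with 20 or more UMIs over both libraries, and a 2-fold difference was counted. Cells were not replicates, each group was 1 library, and no p-value was computed.

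Doublets were kept. Scrublet (Scanpy 1.11.5) with its automatic threshold marked 2.91%, 2.97%, 0.561% and 0.0282% of cells in the Y541S giredestrant, Y541S vehicle, WT giredestrant and WT vehicle libraries, the last too low for a working call; as an alternative the 722, 451, 89 and 460 cells with the highest scores were removed (0.8% per 1000 barcodes). The other alternatives were cells of 1 set only, doubled marker cuts, no cell filter, TMM factors (edgeR 4.0.16, R 4.3.3), thinning to 4000 UMIs and no minimum count. The set of hormone-sensing cells low in Krt14, likeness per chain, and the splits by Fgb alone and by Fgg in basal cells were added after seeing the data.

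Named list genes were those at least 2-fold different with giredestrant in WT hormone-sensing cells, at most 6 per list, from 7 lists with 103 genes. Likeness names the 8 nearest genes by Pearson's r, and the comparison of cells with and without a chain the 12 largest and 8 smallest ratios among genes with 50 or more thinned UMIs in the richer set; only some are printed. The 3 chains and all lists were chosen with earlier results of these data known.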

Additional observations from a re-analysis of the deposited data

Results flagged for a closer look

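Fgb and Fgg differed in opposite directions with giredestrant in the 2 genotypes in hormone-sensing cells, and in other sets only while mixed cells were kept. The log2 ratio of giredestrant over vehicle in Y541S minus that in WT was -7.16 for Fgb (-7.53 to -6.78) and -6.06 for Fgg (-6.22 to -5.90) in hormone-sensing cells, -4.69 for Fgb in basal cells and -7.36 for Fgg in secretory cells. In cells of 1 set only, the basal and secretory values were not opposite. Basal Fgb had 4 UMIs with giredestrant and 0 with vehicle in Y541S, and 13 and 1 in WT, so it was higher in both. Secretory Fgg had log2 ratios of -0.64 in Y541S (-1.90 to 0.46) and -1.67 in WT. The intervals cover counting error only, and with 1 library per group the difference between genotypes was not tested. The Y541S giredestrant library had the lowest depth and the highest Krt14 in its hormone-sensing cells, and the part of either in these differences was not tested beyond the thinned and Krt14-low values given with the alternatives. The basal value rests on 12 and 30 Fgb UMIs in Y541S against 103 and 18 in WT, giredestrant first, and in the secretory value the Fgg UMIs of the Y541S vehicle and WT giredestrant libraries lay mostly in cells that met another cut too (31 of 1078 and 42 of 1743 in the secretory set alone).

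Cells that met no marker cut also held chains, although no comparison uses them. Fgg was at 13.8 CPM in 905 such cells of the Y541S giredestrant library, 29.1 CPM in 326 of the Y541S vehicle library, 13.9 CPM in 224 of the WT giredestrant library and 24.9 CPM in 825 of the WT vehicle library, each above the limit of 3 counts. Fgb was at 1.74 CPM (4 UMIs in 4 cells) in those of the WT giredestrant library. In the WT vehicle library 31 of the cells without a cut held Fgg.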

How the results depend on the processing

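In hormone-sensing cells no log2 ratio of a chain changed direction under any alternative; 52 values lay inside the counting interval of the ratio reported and 17 outside it. With cells of 1 set only, the ratio of giredestrant over vehicle in WT was 5.25 for Fgb and 1.90 for Fgg, that of Y541S over WT under vehicle 0.95 for Fgb, and that of Y541S over WT with giredestrant -4.96 for Fgg. With doubled marker cuts Fgg was at 1.87 in the WT treatment comparison and 1.42 between genotypes under vehicle. With TMM factors the treatment ratios in WT were 4.62 for Fgb and 1.45 for Fgg, and in Y541S -4.60 for Fgg. With thinned cells the treatment ratio of Fgb was 5.25 in WT and -2.68 in Y541S, that of Fgg in Y541S -4.58, and between genotypes Fga was at -1.39 under vehicle, and Fgb at -7.03 and Fgg at -5.04 with giredestrant. In cells low in Krt14, an alternative chosen after seeing the data, Fgg was at -4.74 for treatment in Y541S and -5.22 between genotypes with giredestrant. Ratios turned round in the other sets. The secretory Fgg ratio of giredestrant over vehicle in WT was -1.67 in cells of 1 set only (2.27 over the whole set), and that of Y541S over WT under vehicle -2.91 in cells of 1 set only and -0.81 with doublets removed (1.15 over the whole set). The basal Fgb ratio of Y541S over WT under vehicle was -0.94 after thinning, on 1 and 3 UMIs (1.22 with all UMIs). Basal Fgb for treatment in Y541S, at -0.63 over the whole set, also turned round in cells of 1 set only. It had 4 UMIs with giredestrant and 0 with vehicle there, so no ratio is given. The secretory Fgg ratio for treatment in Y541S was -0.64 in cells of 1 set only and -2.97 with doublets removed (-5.09 over the whole set). The cause was not tested, other than that the secretory values of 1 set only leave out cells with hormone-sensing markers. Without a minimum count, 32.4% of genes were at least 2-fold higher and 15.8% lower with giredestrant in WT hormone-sensing cells, and 32.7% and 14.8% in Y541S. No paired analysis was possible because each group is 1 library and the labels carry no replicate numbers. Depth limits Fga most, since its highest sum held 78 UMIs.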
